A study of Homo sapiens with 6 samples.

Results

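Brachyury and the genes that mark the epithelial or mesenchymal state of a carcinoma cell were examined in H460 cells, a human line established from a large cell carcinoma of the lung. They are 10 of the 31762 genes in the deposited count table, picked by symbol: T (brachyury), the epithelial genes CDH1 and EPCAM, the mesenchymal genes CDH2, VIM and FN1, and the transcription factors ZEB1, ZEB2, SNAI1 and SNAI2. The rule for rows used a measured value, the total count, only for a symbol that stood on several rows. No symbol of the 10 did so. The 10 genes themselves were chosen with earlier results of these data known. RNA was sequenced from 3 control libraries and from 3 libraries of cells given 20 µM fluoxetine, a serotonin reuptake inhibitor used as an antidepressant, for 24 h. All 6 libraries came from the wild-type (WT) line in RPMI-1640 medium with serum. The labels name no vehicle for the control cells and do not say that replicates were separate cultures, so the p-values measure the spread between these libraries, which may be technical.

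In the epithelial-mesenchymal transition (EMT), cells lose E-cadherin junctions and apical polarity and gain a motile, matrix-producing state with vimentin filaments and fibronectin. Zinc-finger repressors of the SNAI and ZEB families bind E-box sequences in the promoters of CDH1 and other epithelial genes and are the best known drivers of the switch. Brachyury, the founding member of the T-box family, is needed for mesoderm and notochord formation in the embryo, is silent in most adult tissues, and has been studied in carcinomas as a factor linked to the mesenchymal state.

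The libraries held 19343565 to 27823667 counts in the control group and 16157507 to 17113538 counts in the fluoxetine group, so every treated library was shallower than every control library. Levels are given in CPM, counts scaled to library size with TMM normalization, where 3 counts, the limit that a count of 0 allows, are worth 0.108 to 0.182 CPM. Such limits cover counting error only. Control replicate 3 stood apart from the other control libraries, from whose counts it differed by a chi-square of 13.7 and 24.2 for each degree of freedom, beside 6.10 between those. Fluoxetine replicate 2 likewise differed from the other treated libraries by 7.34 and 11.9, beside 3.72 between those. The label of a carcinoma was met by the simple-epithelium keratins, since KRT8 had 1840 ± 355, KRT19 1290 ± 116 and KRT18 512 ± 45.0 CPM (SD, n = 3) in control cells, whereas the fourth carcinoma marker, EPCAM, lay under 1 CPM. Of 11 lung lineage and neuroendocrine markers in the table, 9 had a mean under 1 CPM, the exceptions being CHGA (54.3 ± 10.7 CPM) and SYP (2.07 ± 0.390 CPM) in control cells (SD, n = 3), and their summed level was 46.7 to 68.2 CPM in control and 45.4 to 60.7 CPM in treated libraries. Fibroblast and smooth muscle markers summed to 33.3 to 35.4 CPM in control and 31.4 to 32.6 CPM in treated libraries, and 3 of their 8 genes in the table had a mean under 1 CPM. Markers of endothelium and leukocytes summed to 1.91 to 2.40 and 2.32 to 2.98 CPM, with 5 of 6 genes under 1 CPM. In RNA from whole wells, fewer cells of a type and less RNA per cell cannot be told apart.

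In H460 cells T, FN1 and VIM were high, the 4 zinc-finger factors and CDH2 were low, and EPCAM and CDH1 were at or near 0. Levels of different genes were compared per kilobase of exon, in CPM per kilobase. In control cells the mean was 419 for T, 282 for FN1 and 115 for VIM, and then fell 30.9 times to 3.73 for SNAI1. SNAI2 (3.43), ZEB2 (2.09), ZEB1 (1.82) and CDH2 (0.853) followed, then EPCAM (0.164) and CDH1 (0). The ranges over the 3 control libraries overlapped between the neighbours SNAI1 and SNAI2 and between ZEB2 and ZEB1, and not between the other neighbours. With fluoxetine SNAI2 (4.64) stood above SNAI1 (3.21), whose range overlapped that of ZEB2 (3.05), and the other genes held the same order. With the longest annotated transcript as the length in place of all exons, FN1 (533) stood above T (452) in control cells, and ZEB2 (5.48) above SNAI2 (4.11) and SNAI1 (3.73).

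**Figure D1:**
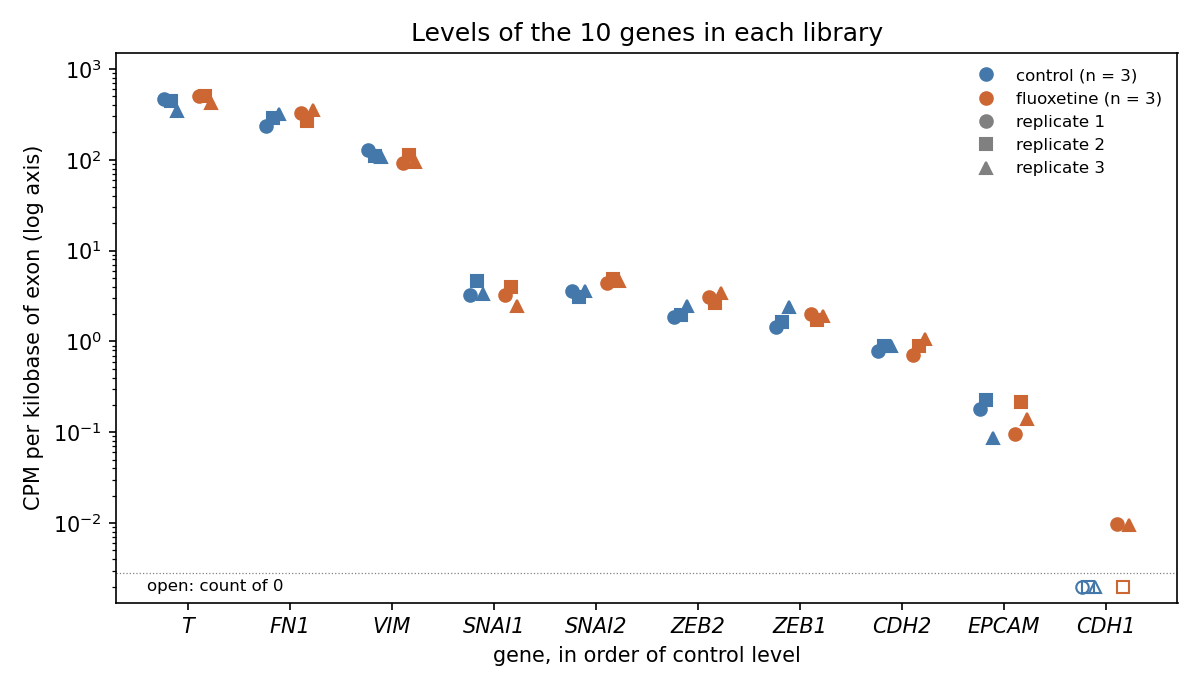
Level of each of the 10 genes in each library, in CPM per kilobase of exon on a log axis, with genes in order of their control mean. Blue points are control and orange points fluoxetine libraries, the shape gives the replicate, and open points at the bottom are counts of 0. T, FN1 and VIM sit far above the other 7 genes, and CDH1 has a count in only 2 libraries, both treated.

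T (ENSG00000164458, chromosome 6, 166157656 to 166168700, minus strand, GRCh38) had 1230, 1170 and 905 CPM in control replicates 1, 2 and 3, and 1340, 1330 and 1110 CPM in fluoxetine replicates 1, 2 and 3. Control replicate 3 was the lowest library and fluoxetine replicate 3 lay below the highest controls, so the groups overlapped. The log2 fold change was 0.20 (95% interval -0.06 to 0.46), with an adjusted p of 0.309 in edgeR's quasi-likelihood test. Without control replicate 3 it was 0.04 (adjusted p = 0.795, edgeR), and with the trends of each library with GC content and transcript length removed it was 0.28 (adjusted p = 0.0185, edgeR), a setting chosen after the data were seen. T was supported by 19102 to 27104 counts per library. Its rank was 53 per kilobase among the 15611 tested genes with a known length.

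No listed T-box relative came near the level of T per kilobase. In CPM per kilobase of exon, TBX2 had 2.72 in control and 1.91 in treated cells, TBX3 2.37 and 2.28, MGA, which also carries a helix-loop-helix domain, 2.20 and 2.67, and TBX18 1.63 and 1.61, against 419 and 480 for T. EOMES, which acts with T in the primitive streak, had 1 to 12 counts per library. MIXL1 had 0 to 1 count and MESP1 1 to 12 counts, while other genes of the list were expressed, with 227 to 417 counts for the notochord signal SHH and 101 to 238 for WNT3. These genes were singled out after their values were seen. Of 40 T-box, primitive streak and notochord genes listed, 30 were in the table and 13 could be tested, of which 0 rose and 1, KRT18, fell at an adjusted p under 0.05 in edgeR's quasi-likelihood test, beside 7.76% and 5.32% of all tested genes. The counts at an unadjusted p under 0.05 were 0 and 3, while 28.7% of all tested genes passed in either direction. At an adjusted p under 0.05, DESeq2 called 0 and 2 of the 13 genes. Their median change was -0.25 on the log2 scale, beside 0.03 over all tested genes. The list holds the notochord keratins KRT8, KRT18 and KRT19, which are also epithelial markers.

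Genes whose log2 CPM followed T most closely over the 6 libraries, among 14268 genes, included MLST8, a subunit of the mTOR complexes (Pearson r = 0.9956), SEC14L2 (0.9934), MID1IP1 (0.9912) and COL6A1, a chain of collagen VI (0.9906). The values are a description over 6 libraries that share their groups and depth. As with T, control replicate 3 was the lowest library for each of these 4 genes, and 0 of them passed the test between groups (unadjusted p from 0.135 to 0.178, edgeR). MLST8, for instance, had 68.5, 64.7 and 45.2 CPM in the control and 74.0, 76.6 and 58.2 CPM in the treated libraries.

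CDH1 (ENSG00000039068, chromosome 16, 68737225 to 68835548, plus strand) encodes E-cadherin, the adhesion molecule of epithelial junctions. It had 0 counts in the 3 control libraries and 1, 0 and 1 counts in fluoxetine replicates 1, 2 and 3. Over the control group this allows up to 0.0435 CPM by the limit of 3 counts. The exact 95% Poisson interval of the control group reaches 0.0535 CPM. The 2 counts of the treated group amount to 0.0396 CPM, with an exact 95% Poisson interval from 0.0048 to 0.143 CPM. Both groups were at or under the limit of 3 counts, so no fold change is given. EPCAM (ENSG00000119888, chromosome 2, 47345158 to 47387601, plus strand), a surface glycoprotein of most carcinomas, had 10, 11 and 6 counts in the control and 4, 9 and 6 counts in the treated libraries. That corresponds to 0.414 ± 0.182 and 0.376 ± 0.148 CPM (SD, n = 3), and the groups overlapped. Neither gene reached the filter on low counts, and a change was not detectable at this depth. An RNA of the signal recognition particle family, Metazoa_SRP, lies within the span of EPCAM with 13 to 35 counts per library.

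CDH2 (ENSG00000170558, chromosome 18, 27950966 to 28177446, minus strand), the N-cadherin gene of nerve and mesenchyme, was low as well. It had 3.86, 4.38 and 4.43 CPM in the control libraries and 3.52, 4.40 and 5.30 CPM in the treated ones. The treated libraries spread on both sides of the controls, and the log2 fold change was 0.06 (95% interval -0.34 to 0.47, adjusted p = 0.857, edgeR). CDH11, the cadherin of osteoblasts and mesenchyme, stood far above it per kilobase, at 65.2 against 0.853 CPM per kilobase in control cells. It was singled out after its values were seen and had 872 ± 61.2 CPM in control and 954 ± 39.4 CPM in treated cells (SD, n = 3). Its log2 fold change was 0.13 (adjusted p = 0.290, edgeR).

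VIM (ENSG00000026025, chromosome 10, 17228259 to 17237593, plus strand) encodes vimentin, the intermediate filament protein of mesenchymal cells. It had 655, 572 and 556 CPM in the control libraries and 471, 582 and 490 CPM in the treated libraries. Treated replicates 1 and 3 lay below every control and treated replicate 2 among them. The log2 fold change was -0.21 (95% interval -0.42 to 0.0033), with an adjusted p of 0.181 in edgeR's quasi-likelihood test. VIM passed the test without control replicate 3 (-0.29, adjusted p = 0.0486) and without fluoxetine replicate 2 (-0.34, adjusted p = 0.0337, both edgeR). The antisense gene VIM-AS1 overlaps it with 8 to 25 counts per library, against at least 7765 for VIM.

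FN1 (ENSG00000115414, chromosome 2, 215360440 to 215436172, minus strand), which encodes the matrix glycoprotein fibronectin, took more counts than all but a few genes, with rank 8 in CPM among the tested genes and rank 82 per kilobase. Its levels were 4090, 5010 and 5550 CPM in the control and 5730, 4610 and 6150 CPM in the treated libraries. The groups overlapped, since treated replicate 2 was below all libraries but control replicate 1. The log2 fold change was 0.17 (95% interval -0.11 to 0.46, adjusted p = 0.429, edgeR), and 0.02 with GC content and length trends removed (adjusted p = 0.824, edgeR).

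Among the transcription factors, ZEB2 and SNAI2 rose and their paralogues ZEB1 and SNAI1 did not pass the test. The promoters of T, ZEB1 and ZEB2 are shown because brachyury had the highest level per kilobase of exon and because the ZEB paralogues had different results. They are windows of 300 bases, from 250 before to 50 after a transcript start, taken from RefSeq on GRCh38.p14 and written 5′ to 3′ on the strand of the gene. Such windows were at hand for 6 of the 10 genes. Capitals mark the E-box CAGGTG or its reverse complement CACCTG, the letters that SNAI and ZEB proteins bind. For T, which has 2 starts in the table, the window at chr6:166168606-166168905 (minus strand) is given, for ZEB1, which has 7, that at chr10:31318966-31319265 (plus strand), and for ZEB2 the window at chr2:144520070-144520369 (minus strand).
T: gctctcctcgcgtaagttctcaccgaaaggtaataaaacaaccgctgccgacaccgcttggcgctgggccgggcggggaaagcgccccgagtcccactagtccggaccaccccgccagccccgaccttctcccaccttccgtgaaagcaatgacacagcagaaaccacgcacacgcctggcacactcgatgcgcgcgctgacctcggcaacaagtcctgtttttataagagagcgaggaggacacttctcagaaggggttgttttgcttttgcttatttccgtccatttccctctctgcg
ZEB1: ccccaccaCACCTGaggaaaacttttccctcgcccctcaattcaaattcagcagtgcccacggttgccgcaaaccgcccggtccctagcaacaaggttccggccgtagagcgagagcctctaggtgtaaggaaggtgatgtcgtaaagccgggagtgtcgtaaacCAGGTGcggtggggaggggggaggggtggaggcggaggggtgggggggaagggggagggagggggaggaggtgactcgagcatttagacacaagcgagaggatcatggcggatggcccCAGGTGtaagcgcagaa
ZEB2: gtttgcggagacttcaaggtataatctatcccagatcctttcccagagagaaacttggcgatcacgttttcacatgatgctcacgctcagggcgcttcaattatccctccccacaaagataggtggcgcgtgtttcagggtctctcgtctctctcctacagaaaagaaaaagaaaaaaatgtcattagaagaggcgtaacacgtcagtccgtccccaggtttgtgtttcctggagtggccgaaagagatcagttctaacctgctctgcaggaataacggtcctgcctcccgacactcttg

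The ZEB1 window held 3 E-boxes, whose first bases lay at positions -242, -85 and 34 from the transcript start. This window was chosen because it held the most E-boxes of the 7 of ZEB1, so its number is a description. Of 35116 promoter windows of the same length, 20.6% held at least 1 E-box and 0.635% held 3 or more. These shares are for windows taken without such a choice. Another ZEB1 window, at chr10:31318167-31318466, held 1 E-box. The other 5 windows of ZEB1 and all windows of T, ZEB2, VIM, FN1 and CDH2 held no match to these letters. The letters TCACACC or their reverse complement GGTGTGA, the core of the T-box site, were in none of the 14 windows of these genes, against 3.45% of all windows. A GGTGTGA preceded by CA would share bases with an E-box. A match describes the letters of the window and is not a measured binding site.

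ZEB2 (ENSG00000169554, chromosome 2, 144364364 to 144524583, minus strand) had 47.2, 48.7 and 61.6 CPM in the control and 78.2, 65.5 and 85.5 CPM in the treated libraries. Every treated library lay above every control library. The log2 fold change was 0.54 (95% interval 0.26 to 0.82), a fold of 1.45, with an adjusted p of 0.0197 in edgeR's quasi-likelihood test. The rise did not pass the test when control replicate 1, control replicate 2, fluoxetine replicate 1 or fluoxetine replicate 3 was left out (0.43 to 0.49, adjusted p = 0.0833, 0.117, 0.107 and 0.0802, edgeR). With GC content and length trends removed it was 0.38 (adjusted p = 0.00205, edgeR). The antisense gene ZEB2-AS1 had 0 to 3 counts per library, against at least 934 for ZEB2.

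SNAI2 (ENSG00000019549, chromosome 8, 48917768 to 48921740, minus strand), the Slug gene of the neural crest and of wound edges, had 12.2, 10.5 and 12.1 CPM in the control and 14.9, 16.7 and 15.5 CPM in the treated libraries. The groups did not overlap here either. The log2 fold change was 0.43 (95% interval 0.18 to 0.69), a fold of 1.35, with an adjusted p of 0.0341 in edgeR's quasi-likelihood test. The call was lost when any library but control replicate 3 was left out (0.33 to 0.45, adjusted p between 0.0804 and 0.171, edgeR) and without the filter on low counts (adjusted p = 0.0544, edgeR).

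ZEB1 (ENSG00000148516, chromosome 10, 31318495 to 31529814, plus strand) had 12.6, 14.3 and 20.5 CPM in the control and 17.3, 15.0 and 16.6 CPM in the treated libraries. All treated values lay within the control range, and the log2 fold change was 0.04 (95% interval -0.34 to 0.42, adjusted p = 0.905, edgeR). ZEB1-AS1 overlaps it with 29 to 65 counts per library, against 253 to 568 for ZEB1, and had a log2 fold change of -0.04 (adjusted p = 0.943, edgeR). Where the counting did not use strand, reads of the overlapping antisense gene cannot be told from those of ZEB1. SNAI1 (ENSG00000124216, chromosome 20, 49982999 to 49988886, plus strand), the Snail gene that acts at gastrulation, had 5.44, 7.81 and 5.58 CPM in the control and 5.40, 6.72 and 4.13 CPM in the treated libraries. The groups overlapped, with a log2 fold change of -0.20 (95% interval -0.67 to 0.26, adjusted p = 0.587, edgeR).

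Of the 8 genes that could be tested, 2 rose and 0 fell at an adjusted p under 0.05 in edgeR's quasi-likelihood test, while 7.76% of all 15646 tested genes rose, 5.32% fell and 13.1% changed in either direction. At an unadjusted p under 0.05 the counts were again 2 and 0, while 28.7% of all tested genes passed in either direction. DESeq2 and limma-voom each called 2 and 0 at an adjusted p under 0.05. Neither rise reached a fold of 2, which 1.25% of the tested genes did with a rise. The groups did not overlap for 2 of the 8 genes, both higher with fluoxetine, and for 31.9% of all tested genes (17.5% higher and 14.4% lower). The 6 genes that missed the threshold are not shown to be unchanged, and their intervals allow changes from -0.67 to 0.47 on the log2 scale. With GC content and length trends removed, 3 genes rose, T being the third, and 0 fell, beside 1956 and 1645 of all 15646 tested genes.

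**Figure D2:**
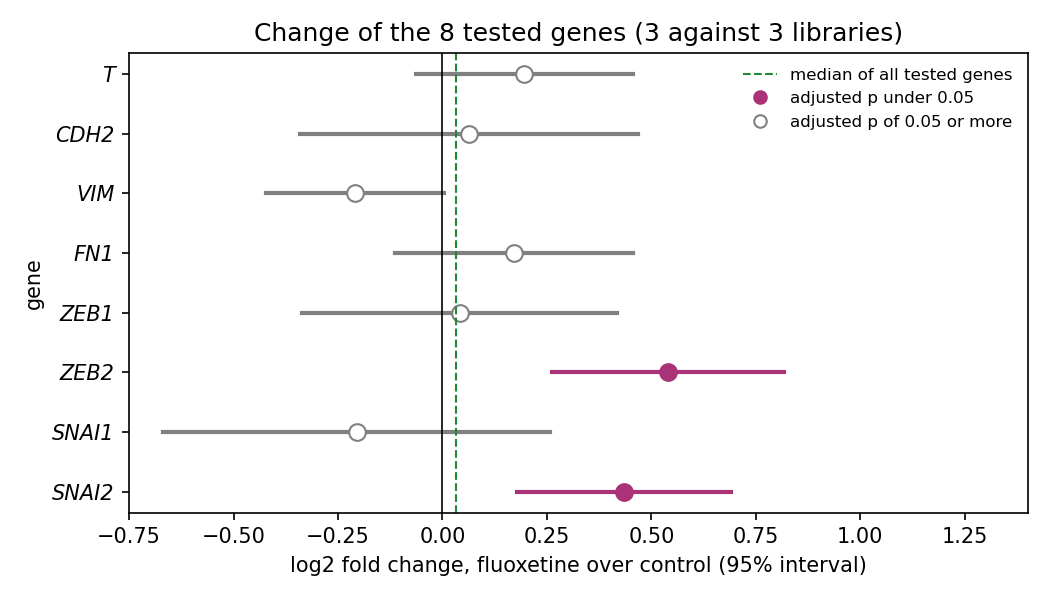
Log2 fold change of fluoxetine over control for the 8 tested genes, with bars for the 95% interval from edgeR over 3 against 3 libraries. Filled points have an adjusted p under 0.05, and the dashed line is the median of all tested genes (0.03). ZEB2 and SNAI2 have intervals above 0, and those of the other 6 genes include 0.

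**Figure D3:**
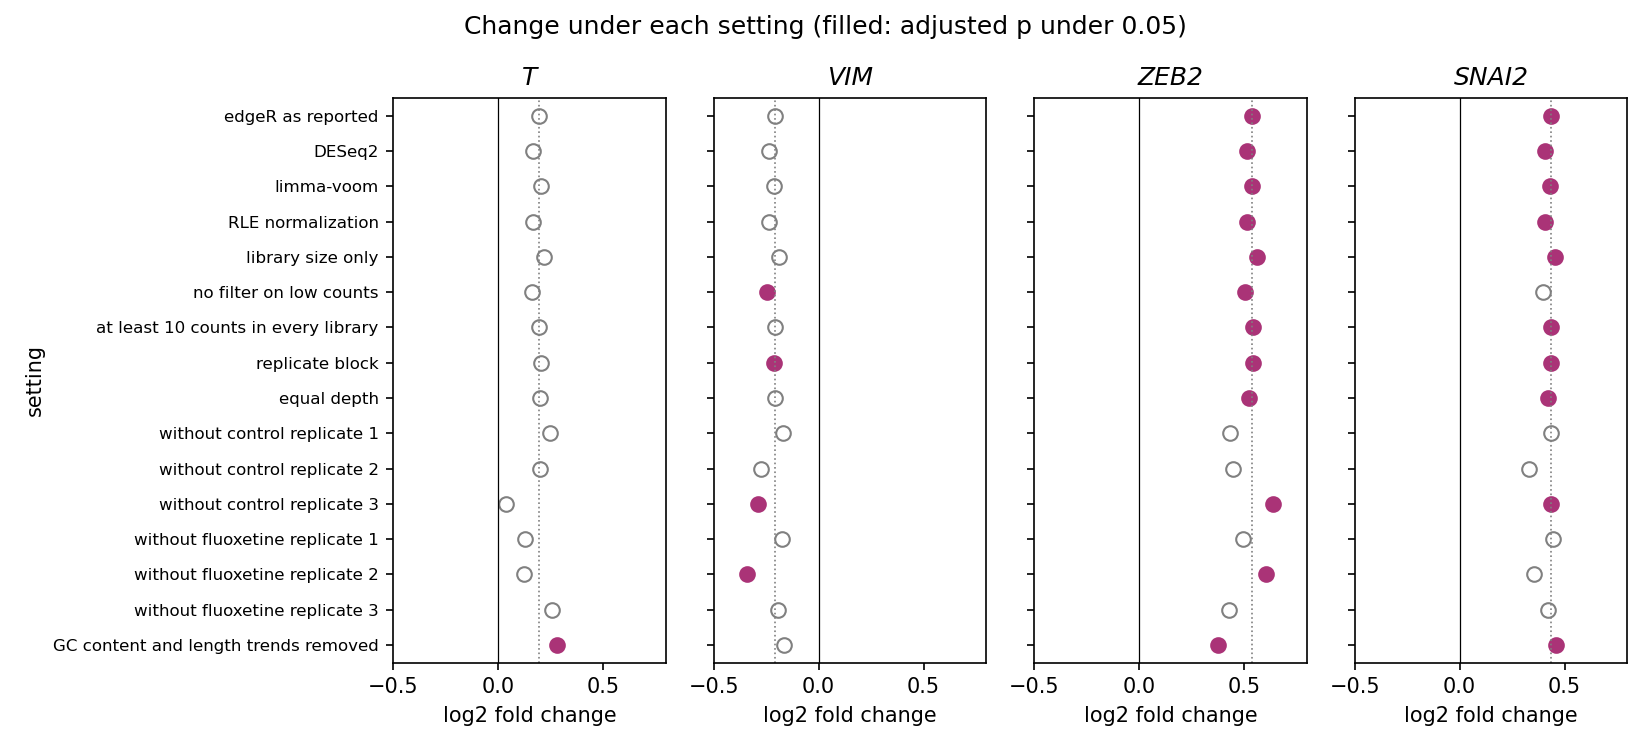
Log2 fold change of T, VIM, ZEB2 and SNAI2 in edgeR as reported and under each of 15 other settings, filled where the adjusted p was under 0.05. The dotted line is the value as reported. ZEB2 stays between 0.38 and 0.64 and SNAI2 between 0.33 and 0.46, and filled points become open mostly where a library is left out.

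The counts of a factor and of its paralogue were also compared within each library, since such a ratio needs no scaling between libraries. There were 3.74, 3.41 and 3.01 ZEB2 counts per ZEB1 count in the control and 4.52, 4.36 and 5.15 in the treated libraries. SNAI2 had 2.24, 1.35 and 2.17 counts per SNAI1 count in the control and 2.76, 2.49 and 3.76 in the treated libraries. For both pairs every treated library lay above every control library. The mean log2 ratio of ZEB1 to ZEB2 changed by -0.47 and that of SNAI1 to SNAI2 by -0.66. Each had an exact two-sided permutation p of 0.1, the smallest that 3 against 3 libraries can give, and 0.125 after adjustment over the 5 pairs compared. EPCAM against VIM changed by 0.15 (exact permutation p = 0.8, adjusted 0.8). The ratios of CDH1 to CDH2 and to VIM rest on 0 or 1 count of CDH1 and are given no value. Both were still among the 5 pairs adjusted, each with an exact permutation p of 0.1 that rests on the 0.5 added to counts. They lower the adjusted p of the ZEB and SNAI pairs, so 0.125 is too small for those pairs.

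**Figure D4:**
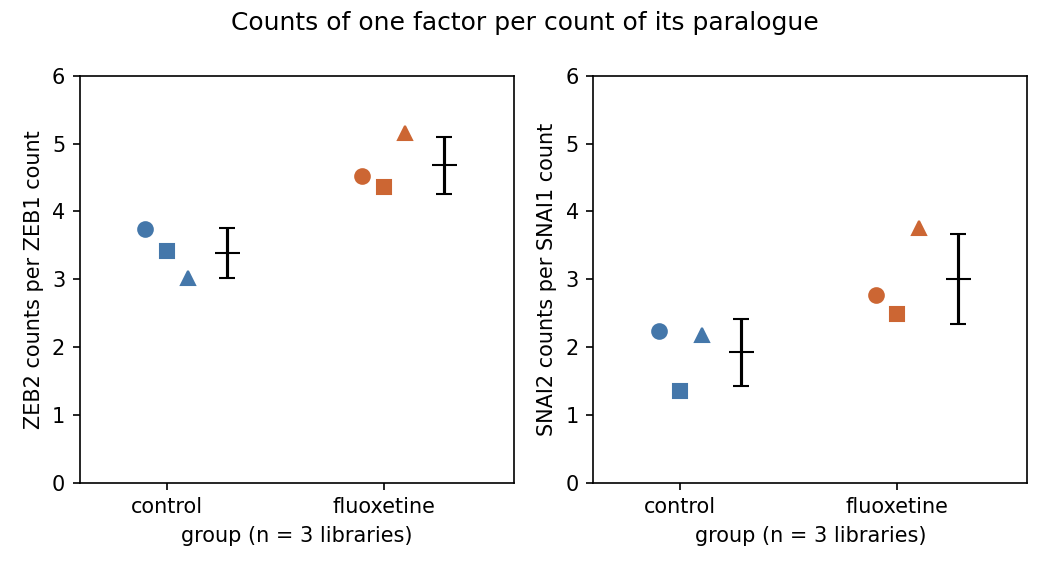
ZEB2 counts per ZEB1 count (left) and SNAI2 counts per SNAI1 count (right) in each library, with the mean and SD of each group (n = 3) in black and the replicate shown by shape as in the plot of levels. The treated libraries lie between 4.36 and 5.15 on the left and between 2.49 and 3.76 on the right, all above the controls.

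Of 56 other epithelial genes listed, 52 were in the table and 40 could be tested, of which 2 rose and 1 fell (median log2 fold change 0.12). That is 7.50% of the tested genes of the list, against 13.1% of all tested genes. The number called ranged from 1 to 11 over the 15 other settings, so the list is not shown to have few calls. At an unadjusted p under 0.05, 6 rose and 4 fell, while 28.7% of all tested genes passed in either direction. KRT18, a keratin of simple epithelia, fell by 0.72 on the log2 scale, from 512 ± 45.0 to 312 ± 39.2 CPM (SD, n = 3; adjusted p = 0.00162, edgeR). Its partner KRT8, whose span overlaps that of KRT18 on the other strand, had a log2 fold change of -0.34 (adjusted p = 0.131), and KRT19 -0.15 (adjusted p = 0.322, both edgeR). Both keratins of the pair have processed copies elsewhere in the genome that can share their reads. AP1M2, the epithelial subunit of a sorting adaptor, rose by 0.36 (adjusted p = 0.0382) and CDS1, a phospholipid enzyme, by 0.68 (adjusted p = 0.0470, both edgeR). The splicing factors of epithelial cells ESRP1 and ESRP2 had 1 to 17 and 1 to 10 counts per library, and the epithelial transcription factors GRHL2 and OVOL1 had 0 to 3 and 0 to 1. These 4 genes were singled out after their values were seen. With GC content and length trends removed, 4 epithelial genes rose and 4 fell, beside 1956 and 1645 of all 15646 tested genes.

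Of 50 further mesenchymal genes listed, 49 were in the table and 40 could be tested, of which 2 rose and 6 fell (median 0.03), against 7.76% and 5.32% of all tested genes. At an unadjusted p under 0.05 the balance was the other way, with 10 higher and 8 lower, while 28.7% of all tested genes passed in either direction. CYR61, a matrix protein induced by YAP and TAZ, fell by 1.20 on the log2 scale, from 112 ± 10.6 to 48.7 ± 1.08 CPM (SD, n = 3; adjusted p = 1.89e-05, edgeR). The tropomyosin gene TPM1 fell by 0.44 (adjusted p = 0.0103) and the fibrillar collagen gene COL3A1 by 0.53 (adjusted p = 0.0145, both edgeR). Outside the naming rule and singled out after their values were seen, 3 more genes fell. THBS1, the matrix protein thrombospondin, fell by 1.55 from a low level of 1.67 ± 0.475 CPM (adjusted p = 0.0233, edgeR), NES by 0.36 and FSTL1 by 0.28. CALD1, an actin-binding regulator of contraction, rose by 0.65 (adjusted p = 0.00119) and the proteoglycan gene SPOCK1 by 0.49 (adjusted p = 0.00895, both edgeR). The genes of the list with the highest CPM, COL5A2 and TGFBI, had log2 fold changes of 0.19 (adjusted p = 0.205) and 0.05 (adjusted p = 0.613, both edgeR). With GC content and length trends removed, 8 genes of the list rose and 7 fell, beside 1956 and 1645 of all 15646 tested genes.

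Of 24 tested regulators of the transition beyond the 4 factors above, 2 rose and 3 fell (median -0.01), or 20.8% called in all against 13.1% of all tested genes. KLF4, a zinc-finger factor of epithelial identity, rose by 0.63 (adjusted p = 0.00239) and TCF4, an E-box factor, by 0.64 (adjusted p = 0.0131, both edgeR). AJUBA, a LIM protein that binds SNAI1 and curbs Hippo signalling, fell by 0.82, from 49.3 ± 2.35 to 27.9 ± 1.02 CPM (SD, n = 3; adjusted p = 2.86e-04). LOXL3, a lysyl oxidase relative, fell by 0.76 (adjusted p = 0.0103) and TEAD4, a DNA-binding partner of YAP, by 0.59 (adjusted p = 0.0145, all edgeR). TEAD1 and WWTR1 (TAZ), the genes of highest CPM in the list, had values of 0.09 and 0.11 and did not pass. With the trends removed, 4 rose and 5 fell, beside 1956 and 1645 of all 15646 tested genes.

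Among signalling genes that act upstream of these factors, 6 of 34 tested genes of the TGF-beta and BMP pathways rose and 0 fell (median 0.09), beside 7.76% rising and 5.32% falling over all tested genes. At an unadjusted p under 0.05, 11 rose and 1 fell, while 28.7% of all tested genes passed in either direction. DESeq2 called 3 and 0 at an adjusted p under 0.05. The BMP receptor ACVR1 rose by 0.74, from 25.6 ± 0.908 to 42.7 ± 2.60 CPM (SD, n = 3; adjusted p = 7.73e-04), the inhibitory SMAD6 by 0.72 (adjusted p = 0.00626), the receptor TGFBR1 by 0.34 (adjusted p = 0.0278), the corepressor TGIF1 by 0.31 (adjusted p = 0.0377) and the stress-induced ligand GDF15 by 0.96 (adjusted p = 0.0397, all edgeR). With the trends removed, 6 rose and 1 fell at an adjusted p under 0.05 (edgeR), beside 1956 and 1645 of all 15646 tested genes. At an unadjusted p under 0.05 the counts were then 8 and 5. The median of the list was then -0.0007 in place of 0.09, beside 0.03 over all tested genes. Of 40 tested WNT and FGF genes 7 rose and 2 fell (median 0.13), which is 22.5% called against 13.1% of all tested genes. With the trends removed 7 rose and 5 fell, beside 1956 and 1645 of all 15646 tested genes. WLS, the carrier of WNT ligands, rose by 0.47 (adjusted p = 0.0033), and so did EGR1, an immediate early factor, SPRY4, an inhibitor of FGF signalling, and DUSP4, a MAP kinase phosphatase, by 0.61, 0.41 and 0.32 (adjusted p between 0.0114 and 0.0146). Other genes of the list linked to MAP kinase signalling had values on both sides of 0. FOSL1 had -0.32 (adjusted p = 0.0501), DUSP5 -0.25, DUSP6 -0.22 and PHLDA1 -0.12, and these did not pass. ETV1 rose by 0.36 (adjusted p = 0.0241) and SPRED1 by 0.37 (adjusted p = 0.0298), while IER3 had 0.10 (adjusted p = 0.748). Apart from ETV1, these genes were singled out after their values were seen. The WNT antagonist DKK1 fell by 0.82, from 17.3 ± 1.59 to 9.83 ± 1.58 CPM (SD, n = 3; adjusted p = 0.00493, all edgeR). In the fibroblast markers, LUM rose by 0.88 from 4.52 CPM (adjusted p = 0.00448, edgeR) and COL3A1 fell.

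**Figure D5:**
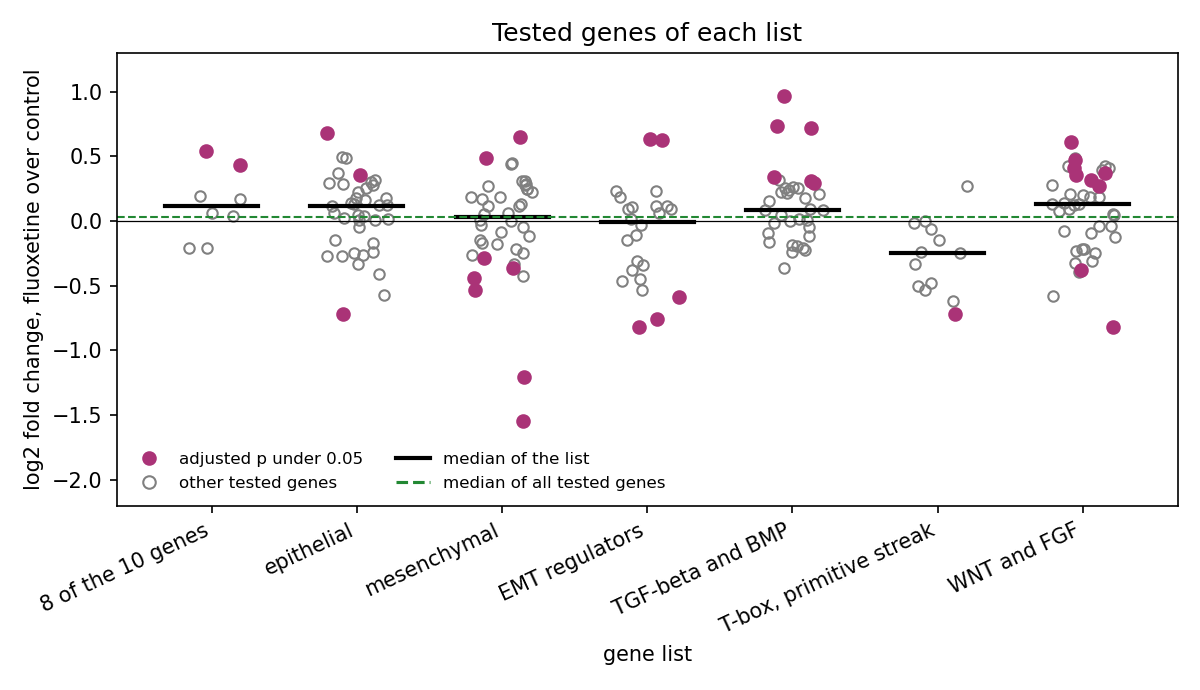
Log2 fold change of each tested gene, by list, with filled points for an adjusted p under 0.05 in edgeR. Black bars are the medians of the lists and the dashed line is the median of all tested genes (0.03). Called genes lie on both sides of 0 in the epithelial, mesenchymal and EMT regulator lists and above 0 in the TGF-beta and BMP list, which has 6.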

How the data were processed

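RNA of H460 cells, 3 control libraries and 3 after 20 µM fluoxetine for 24 h, was analysed from the raw counts per gene that the authors deposited, without normalization or pooling. The submitters' processing notes name fastp 0.20.0, HISAT2 2.1.0, HTSeq 0.10.0 and DESeq2 1.18.1. The strand setting is not given in the sources used here. The same table holds the authors' fold changes and p-values, which were not used. Gene positions are those of the table, and 31635 of its 31762 genes were in GENCODE 29 (GRCh38), with the same start and end for 96.81%, from which lengths and GC content were taken.

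The test was edgeR 4.0.16 in R 4.3.3 (glmQLFit and glmQLFTest, TMM, no covariate, filterByExpr), with Benjamini-Hochberg adjustment over 15646 genes. TMM factors lay between 0.985 and 1.02. Within-library ratios used 0.5 added to each count, and likeness to T used log2 CPM (prior count 2) of genes with a mean of at least 1 CPM. The members and lists were chosen with earlier results of these data known. Named are all 10 members, up to 5 called genes of smallest p and the 2 most abundant genes of each list, the 5 genes most like T, and genes overlapping a member. Others are marked. Of the genes so named, 1 is not reported here. The alternatives were DESeq2 1.42.0, limma-voom (limma 3.58.1), RLE factors, library size only, 2 other filters, equal depth (16157507 counts), a replicate block, omission of each library and, chosen after the data were seen, removal of GC content and length trends by splines. On simulated counts edgeR called 42 of 50 genes planted at a fold of 1.5 and 30 of 50 at 0.67, with 8 false calls among 15695 tested. That simulation gave every gene the same dispersion, had no outlying library and planted changes only in well-counted genes. It therefore does not give the power or error rate in these data. No pair of libraries agreed within sampling noise.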

Additional observations from a re-analysis of the deposited data

How the results depend on the processing

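Counts of calls moved with several settings. Over all genes 1214 rose and 833 fell, against 1516 falling without the filter, 2231 and 1787 with the replicate block, and 1956 and 1645 with GC content and length trends removed. Leaving out a library gave 409 to 1627 rising and 163 to 2006 falling, the lowest of both without fluoxetine replicate 1 and the highest without control replicate 3. Among the members, 1 rose and 1 fell without the filter, 1 fell with the block, and 0 to 2 rose and 0 to 1 fell when a library was left out.

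Epithelial calls (3) became 1 with RLE factors, 7 without the filter, 11 with the block and 8 with the trends removed, and 1 to 8 with a library left out. Mesenchymal calls (8) became 17 with the block and 15 with the trends removed (3 to 14 with a library left out). Calls among EMT regulators (5) became 9 without the filter, 11 with the block and 9 with the trends removed (3 to 9). TGF-beta and BMP calls (6) became 3 with DESeq2 and 10 with the block (1 to 8). T-box and streak calls (1) became 2 with DESeq2, 3 without the filter, 4 with the block and 2 with the trends removed (1 to 4). WNT and FGF calls (9) became 15 with the block (2 to 13), and fibroblast calls (2) ranged from 1 to 2.

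With a library left out, the log2 fold change of T ranged from 0.04 to 0.26, CDH2 from -0.11 to 0.17, VIM from -0.34 to -0.17, FN1 from 0.02 to 0.25, ZEB1 from -0.13 to 0.25, ZEB2 from 0.43 to 0.64, SNAI1 from -0.42 to -0.06, and SNAI2 from 0.33 to 0.45, and the EPCAM to VIM log2 ratio from -0.20 to 0.45. CDH2 was -0.0016 at equal depth and ZEB1 -0.0624 with the trends removed. T was 0.28 with the trends removed (adjusted p = 0.0185). VIM passed without the filter (-0.24, adjusted p = 0.0240) and with the replicate block (-0.21, adjusted p = 0.0489), and SNAI2 did not pass without the filter (0.40, adjusted p = 0.0544, all edgeR). With the longest transcript as length, 6 of the 10 members held their rank.

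The labels do not say whether replicate numbers pair the libraries. Deviations of same-numbered libraries from their group means correlated by 0.03, 0.12 and 0.39. Those of differently numbered libraries correlated by -0.38 to 0.32, the highest being control replicate 1 with fluoxetine replicate 2. These values do not settle whether the libraries are paired. The block changed no member's call but that of VIM, and with it the adjusted p of T was 0.0666 (edgeR). Log2 fold changes correlated weakly across genes with GC content (Spearman rho = -0.162) and length (0.201), and genes are not independent replicates. Every treated library was shallower than every control, and members with fewer than 100 counts in a library (CDH2, SNAI1) have the widest intervals. For the other changes listed the cause was not tested.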
